A study of Mus musculus with 2 samples.

Results

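The regions described here were places on the mouse genome that appeared as KDM4A peaks in the cells given siRNAs against GPS2 and not in the control cells, and where reads could be placed at one position. KDM4A peaks had been called separately in each library, and peaks overlapping between or within the 2 lists by 1 bp or more were joined. Of the 1910 joined peaks of the series, 1886 lay on chromosomes 1 to 19 and X, and 497 of those were made only of peaks of the siGPS2 list. In 255 of the 497, at least 50% of the distinct reads of both libraries together had a mapping quality of 30 or more, and these 255 are the regions of this section. Mapping quality is the aligner's score for how surely a read belongs where it was placed. The siGPS2 reads and the absence of a siCTL peak chose the regions, so differences between the libraries inside them are given as descriptions.

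The assay was chromatin immunoprecipitation followed by sequencing (ChIP-seq) in 3T3-L1, a mouse preadipocyte cell line that becomes fat-storing adipocytes when given adipogenic hormones. The cells were transfected with control siRNA (siCTL) or with siRNAs specific for GPS2 (siGPS2) and induced to differentiate, and the same antibody, spelled anti-KMD4A in the labels (Abcam ab47984), was used in both. There was 1 library per group, with 6559860 distinct reads in siCTL and 4940261 in siGPS2, and no input or control-antibody library was used here. With a lone library per group nothing was replicated and no p-value could be had. The 95% intervals cover counting error between these libraries only. Reads that carry no molecular identifier cannot be shown to be independent molecules, which the intervals assume. The amount of GPS2 or KDM4A in the cells was not analysed here. A lower read density cannot tell fewer cells with the protein bound from less protein bound per cell.

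KDM4A, also called JMJD2A, is a demethylase that removes methyl groups from lysine 9 and lysine 36 of histone H3, and its Tudor domains hold it to methylated histone tails. Loss of methyl groups at lysine 9 is linked to open, active promoters. GPS2 is a subunit of the NCoR and SMRT corepressor complexes, which carry the deacetylase HDAC3, and in adipocytes it also acts with PPARG, the nuclear receptor that drives fat cell genes. The series title ties KDM4A to GPS2 and asks about promoters. No genome or annotation of mm8, the build of the deposited files, was used here, so the regions are given by position, without sequence or nearest gene.

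The 255 regions were peaks of few reads. They held 259 peaks of the 1349 in the siGPS2 list. That list holds only coordinates, so what its order stands for is not given. Neighbouring siGPS2 peaks were joined in 4 regions, up to 2808 bp, and the rest were single peaks of 2000 bp. In the order of the deposited siGPS2 list, the earliest of these regions stood at place 339, the median at place 1070 and the last at place 1348, with 240 of the 255 in the later part of the list (after its midpoint). A region held 4 to 33 distinct siGPS2 reads (median 12) and 3 to 47 siCTL reads (median 12). The siGPS2 median was also 12 in the 119 uniquely placed peaks of both lists and over all 1886 joined peaks. The siCTL medians of those were 16 and 15. As RPM, reads scaled to the library's total of distinct reads, the medians were 2.43 in siGPS2 and 1.83 in siCTL. Over both libraries a region had 8 to 71 reads, and 188 of the 255 had fewer than 30. The reads were mostly well placed: the median share of high mapping quality was 96.4%, and in 108 regions all reads had it.

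At the threshold of the rule, 11 regions had a share of exactly 50%. Those first in the list were chr6:17660465-17662464 with 9 siCTL and 9 siGPS2 reads, chr8:106973899-106975898 with 12 and 8, and chr13:9651309-9653308 with 11 and 9. Just outside were chr12:116062081-116064080 with a share of 49.1% and 30 and 27 reads, chr12:87084847-87086846 with 47.4% and 7 and 12 reads, and chr5:24524783-24526782 with 47.4% and 10 and 9 reads. The first region outside thus held more reads than the 3 named inside, and the other 2 outside about as many.

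At the centres of the regions the siCTL library also stood above its surroundings, although its own list did not hold them. Within 150 bp of the centre there were 1108 siGPS2 reads and 719 siCTL reads over the 255 regions. Relative to the flanks, 2000 to 10000 bp away, this was 5.09 times the density in siGPS2 (95% exact conditional interval 4.78 to 5.41) and 2.61 times in siCTL (2.42 to 2.81). The siGPS2 value describes the reads that placed the peaks. The siCTL reads did not place them, and the absence of a siCTL peak would act to lower the siCTL value. In siCTL, 210 of the 255 regions had a higher density at the centre than in their own flanks (82.4%), and in 66 (25.9%) the interval of that ratio lay above 1. The same holds for 46.8% and 1.43% of 1132563 windows of 2 kb tiled over these chromosomes with at least 50% of reads of high mapping quality, and the interval lay above 1 for 62.9% of all 1886 joined peaks. Few positions were held by both libraries, 24 of the 719 siCTL centre reads (3.34%, against 1.02% of siCTL reads on these chromosomes), and without them the siCTL enrichment was 2.53 times (2.34 to 2.73).

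**Figure D1:**
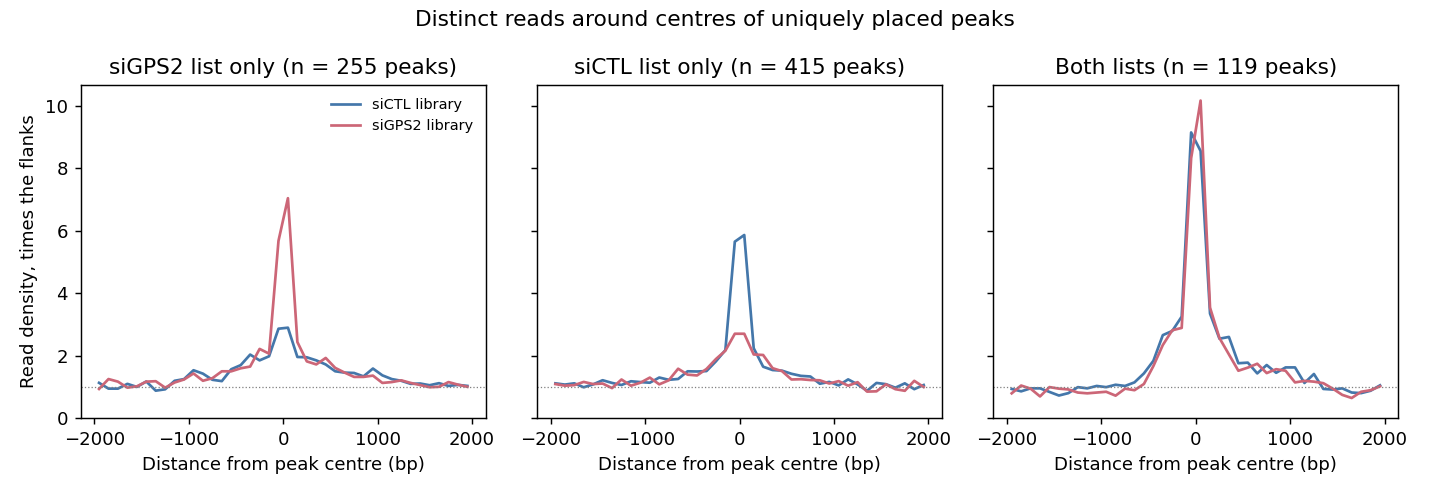
Distinct reads of each library in bins of 100 bp (lines) against the distance from the peak centre in bp, as multiples of the density 2000 to 10000 bp away (dotted line at 1), for uniquely placed peaks of the siGPS2 list only, of the siCTL list only and of both lists. In the left panel siGPS2 reaches 7.04 and siCTL 2.90 in the bin after the centre, while the lines run together from about 150 bp outwards; the middle panel shows the reverse.

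The difference between the libraries lay in the middle of the regions and not in the broader rise around it. The regions are centred on siGPS2 peaks and hold no siCTL peak, so a siGPS2 excess at the centre follows from the choice. The contrast of centre and shoulder is given as a description. From 150 to 1000 bp on either side of the centre, called the shoulder here, siCTL had 1.60 times the density of the flanks (1.54 to 1.67) and siGPS2 1.58 times (1.51 to 1.66). In shoulder reads, 2504 in siCTL and 1952 in siGPS2, the scaled ratio of siGPS2 over siCTL was 1.04 (0.975 to 1.10), and in the flanks it was 1.05 (1.02 to 1.08). Within 150 bp of the centre the ratio was 2.05 (1.86 to 2.25). A rise in the shoulder was common among the regions: 205 of the 255 (80.4%) had a higher density there than in their flanks in siCTL, 199 (78.0%) in siGPS2 and 169 in both. The same was true of 46.8% of the tiled windows in siCTL and 46.1% in siGPS2, and in siCTL of 74.5% of the uniquely placed peaks of the siCTL list only and 69.7% of those of both lists. The density came back to that of the flanks by about 1500 bp, with values of 1.06 in siCTL and 1.05 in siGPS2 from 1500 to 2000 bp after the centre.

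The peaks of the siCTL list only gave the mirror image. In the 415 uniquely placed peaks of that kind, the centre ratio of siGPS2 over siCTL was 0.554 (0.511 to 0.599), and the library that lacked them, siGPS2, had 2.54 times (2.37 to 2.72) its flank density at the centre, close to the 2.61 times of siCTL in the 255 regions. Their shoulder ratio was 1.04 (0.992 to 1.09). In the 119 uniquely placed peaks of both lists, centred on the siGPS2 peak, the centre ratio was 1.05 (0.961 to 1.15). Their shoulder ratio was 0.936 (0.867 to 1.01). Each class was picked on the reads compared, so the opposite directions at the centre follow the choice of list. The shoulders of all 3 classes had intervals that reached 1.

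**Figure D2:**
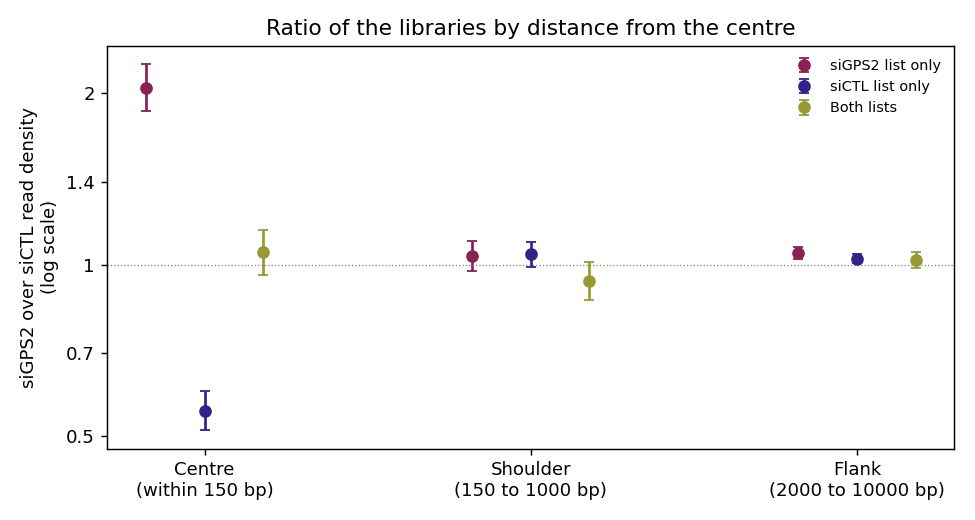
Ratio of siGPS2 over siCTL read density (log scale, points, with 95% exact conditional intervals as bars) by distance from the peak centre, for uniquely placed peaks of the siGPS2 list only, of the siCTL list only and of both lists. The classes part at the centre (2.05, 0.554 and 1.05) and lie near 1 in the shoulders and flanks.

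The reads of a bound site come from the ends of fragments that cross it, so reads of the plus strand begin before the centre and reads of the minus strand after it. At the 255 regions, 677 of 923 siGPS2 reads within 100 bp of the centre pointed inward in this way (73.3%, 95% Wilson interval 70.4 to 76.1%). The siGPS2 reads placed these centres, so the siGPS2 values here are descriptions and 50% is no reference for them. The siCTL reads did not place the centres, and reads spread without regard to strand give 50%. No input library was used, so the inward share of background reads at these places is not known. Of 529 siCTL reads, 326 pointed inward (61.6%, 57.4 to 65.7%). These were 167 plus reads before the centre and 159 minus reads after it, against 107 plus reads after and 96 minus reads before. Within 500 bp, the median minus-strand position lay 50 bp after the median plus-strand position in siCTL (22 to 81 bp, from order-statistic intervals of the medians) and 54.5 bp after it in siGPS2 (43 to 67 bp). Nearly all aligned reads spanned 48 bp (98.6% in siCTL and 98.5% in siGPS2), close to both shifts. The part of read length and of where reads can be placed in these shifts was not tested. In the 119 uniquely placed peaks of both lists the siCTL inward share was 70.5% (67.5 to 73.3%). Those had been called on siCTL reads as well and the 255 regions had not, so the order of these shares follows from the choice. In both classes the centre is that of the siGPS2 peak. In the 415 peaks of the siCTL list only, chosen the other way round, the share was 59.7% (55.8 to 63.5%) in siGPS2 and 75.8% (73.7 to 77.8%) in siCTL.

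**Figure D3:**
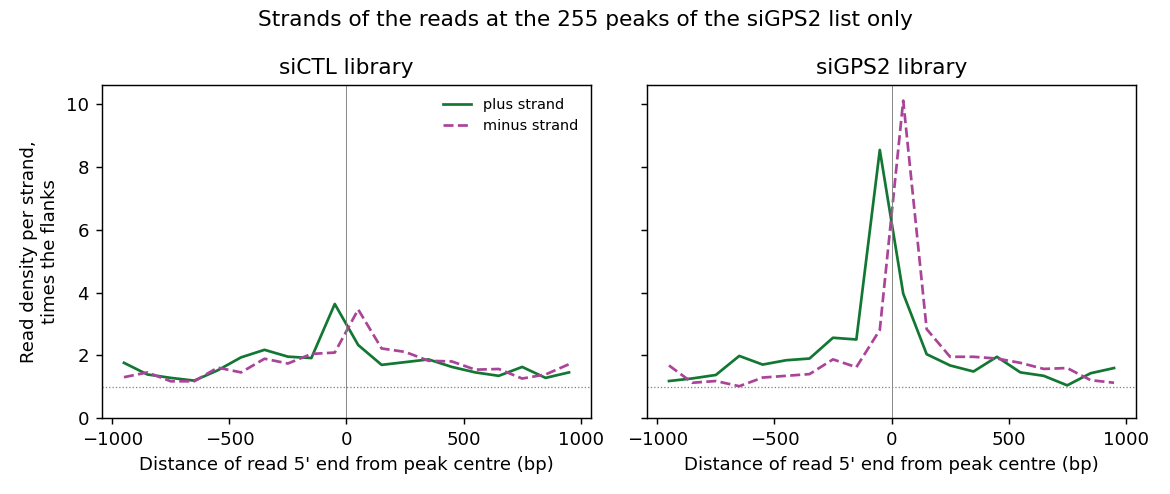
Density of the 5 prime ends of plus-strand (solid) and minus-strand (dashed) reads in bins of 100 bp around the centres of the 255 regions, as multiples of the flank density per strand (the mean of the strands), against the distance from the centre in bp, for the siCTL and the siGPS2 library. In both libraries the plus strand peaks before the centre and the minus strand after it, at 3.64 and 3.46 in siCTL and 8.54 and 10.1 in siGPS2.

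The regions differed among themselves by few reads. Within 150 bp of the centre, siGPS2 had a median of 4 reads (0 to 11) and siCTL a median of 2 (0 to 8). No siCTL read fell there in 23 regions, and 1 read in 48. Those 23 regions still had a shoulder density of 1.23 times the flanks in siCTL (1.03 to 1.47) and 1.27 times in siGPS2 (1.05 to 1.53), from 146 and 125 reads. At the other end, 51 of the 255 regions (20%) had at least 5 siCTL reads at the centre, the median of the 415 uniquely placed peaks that only the siCTL list held. In 43 of the 255 the scaled centre density was higher in siCTL than in siGPS2, although the siGPS2 list alone held them. In 2 regions no siGPS2 read fell within 150 bp of the centre: chr2:164460275-164462274, with 16 siCTL and 7 siGPS2 reads in the whole peak, and chr6:4550130-4552129, with 10 and 8. Both were picked out after their values were seen.

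**Figure D4:**
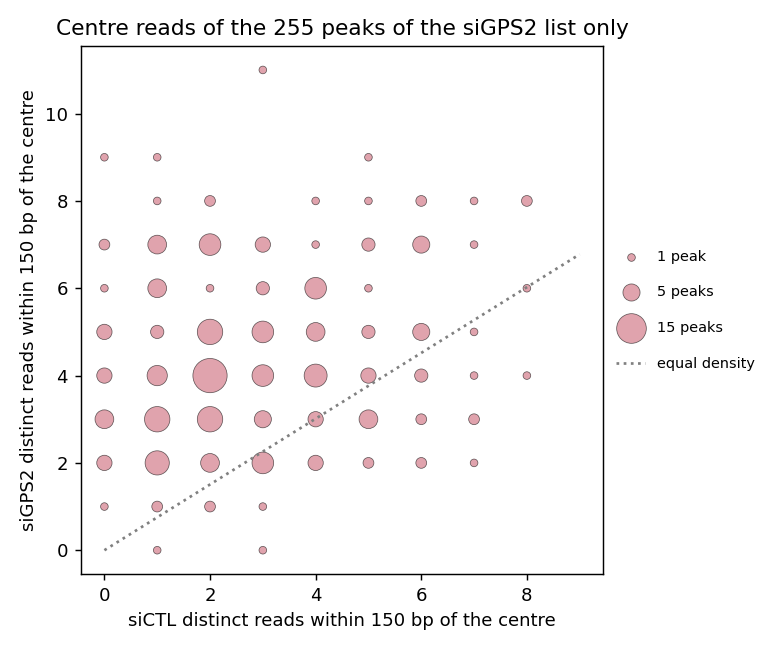
Distinct reads within 150 bp of the centre in siCTL (horizontal) and siGPS2 (vertical) for the 255 regions; the area of a circle gives the number of regions with those values, and the dotted line is equal density after scaling. Most regions lie at 2 to 7 siGPS2 reads, and 43 lie below the line.

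The 10 regions named for the most siGPS2 reads at the centre had 8 to 11 there and 0 to 8 siCTL reads. At least 8 such reads were found in 14 regions, and 4 of those with 8 were left unnamed for their later place in the list. The first was chr4:3178284-3180283, with 3 siCTL and 11 siGPS2 reads within 150 bp of the centre. Its shoulders went the other way in raw reads, 15 against 7, so the whole peak had 18 reads in each library, a ratio of 1.33 (0.652 to 2.71). Next came chr8:94023061-94025060, with 1 siCTL and 9 siGPS2 centre reads and 10 against 17 in the whole peak (2.26, 0.976 to 5.52). The region chr8:60543885-60545884 had 5 and 9 centre reads, and 19 against 21 in all. At chr15:97920324-97922323 there were no siCTL and 9 siGPS2 centre reads, and 9 against 15 in all (2.21, 0.907 to 5.74).

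The other 6 each had 8 siGPS2 centre reads. The region chr1:189319273-189321272, the first of the 255 in the siGPS2 list, had 8 siCTL centre reads as well, with 40 against 31 reads in the whole peak (1.03, 0.622 to 1.69). The neighbours chr2:177460567-177462566 and chr2:177467713-177469712, whose centres lay 7146 bp apart, had 8 and 6 siCTL centre reads. Their whole-peak reads were 42 against 21 (0.664, 0.374 to 1.15) and 28 against 29 (1.38, 0.790 to 2.40). The region chr8:35622333-35624332 had 6 siCTL centre reads, chr6:148852273-148854272 had 2 and chr11:116439323-116441322 had 1. The regions with the strongest siGPS2 centres thus ranged from no siCTL read to as many siCTL as siGPS2 reads, and all 10 whole-peak intervals held 1.

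The 5 regions named for the most siCTL centre reads included the chromosome 1 region and the first of the chromosome 2 pair named above. The others were chr11:5441096-5443095 with 8 siCTL and 6 siGPS2 centre reads, chr8:125660547-125662546 with 8 and 4, and chr15:81752389-81754388 with 7 and 5. The last was named for its place in the list among 7 regions with 7 siCTL centre reads, whose whole-peak ratios ran from 0.590 to 1.68, with 4 above 1. In each of the 3 given here the scaled whole-peak ratio was below 1, from 0.598 (0.240 to 1.37) in the chromosome 8 region to 0.948 (0.377 to 2.30) in the chromosome 11 region, with intervals that held 1.

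Over whole peaks the summed ratio of the 255 regions was 1.26 (1.20 to 1.32), from 3235 siCTL and 3069 siGPS2 reads, and the median ratio was 1.33 (0.339 to 4.87 over the regions). The ratio was above 1 in 182 of the 255 (71.4%), against 51.5% of all 1886 joined peaks. Peaks with 30 or more reads in all were called higher or lower when the fold reached 1.5 and its interval did not hold 1. Of the 67 regions with at least 30 reads, 7 were called higher in siGPS2 and 1 lower. Over all 782 joined peaks with at least 30 reads, 2.81% were called higher and 1.53% lower. The rule used this contrast, so nothing is read from the difference between those shares. Under the minimum of 30 reads, 188 regions could not be called. Among them, singled out after its value was seen, was the largest ratio of the 255, at chr2:180313969-180315968, with 3 siCTL and 11 siGPS2 reads (4.87, 1.29 to 27.2).

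In the 7 regions called higher, the siGPS2 excess was found in the shoulders too, unlike in the class as a whole. The largest fold was at chr16:18789928-18791927, with 9 siCTL and 21 siGPS2 reads (3.10, 1.36 to 7.68), 2 against 7 at the centre and 7 against 14 in the shoulders. At chr11:23532452-23534451 there were 10 and 20 reads (2.66, 1.19 to 6.35), and 7 against 13 in the shoulders. The most reads were at chr17:6213394-6215393, 18 and 33 (2.43, 1.33 to 4.59), with 15 against 26 in the shoulders. The reads were 11 and 19 at chr19:60809647-60811646 (2.29), 12 and 20 at chr2:58961351-58963350 (2.21), 16 and 26 at chr15:75736363-75738362 (2.16) and 20 and 28 at chr8:36274841-36277311 (1.86), each with an interval whose lower bound was between 1.01 and 1.11. In all 7 the raw shoulder reads were higher in siGPS2, the library with fewer reads. These regions were chosen for their whole-peak ratio, which includes the shoulders. With the libraries scaled to the flank reads of the 255 regions in place of all reads, 4 were called higher.

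The region called lower was chr4:146361138-146363137, with 47 siCTL and 12 siGPS2 reads (0.339, 0.164 to 0.649). At its centre there were 6 and 2 reads and in its shoulders 41 and 10. Its share of high mapping quality was 64.4%, and the surrounding 100 kb held 2.56 times the genome median of reads in siCTL and 2.52 times in siGPS2. It stood at place 687 of the siGPS2 list and in no peak of the siCTL list.

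The regions lay mostly on a few chromosomes. Chromosome 8 held 56 of the 255 (22.0%), with 5.08% of the tiled 2 kb windows and 6.77% of siCTL and 6.79% of siGPS2 reads. Chromosomes 6, 11 and 15 held 25, 24 and 24, chromosome 2 held 22, and chromosome 7 held 2 with 5.19% of the windows. No region lay on chromosome X, which had 5.25% of the windows and where the siCTL list alone had 7 uniquely placed peaks. Chromosome 8 also led among the peaks of the siCTL list only (77 of 415, 18.6%) and of both lists (19 of 119, 15.97%).

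The order of the chromosomes followed their read density. Chromosome 8 had the highest siCTL density, a median of 55 reads per 16 kb of flank around its 2 kb windows, and 44.7 regions per 100 Mb. Chromosome X had the lowest, 24 reads, and no region. Across the 20 chromosomes the Spearman correlation between siCTL density and regions per 100 Mb was 0.905 and the Pearson correlation 0.885, as a description: the chromosomes share the library, and the sequence composition was not analysed here. The 6 densest chromosomes (6, 8, 11, 15, 17 and 19) held 153 of the 255 regions (60%) on 26.0% of the windows, along with 55.4% of the peaks of the siCTL list only and 45.4% of those of both lists. For peaks of the siCTL list only the Spearman correlation was 0.868. The part of copy number, base composition or gene content in this distribution was not tested.

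**Figure D5:**
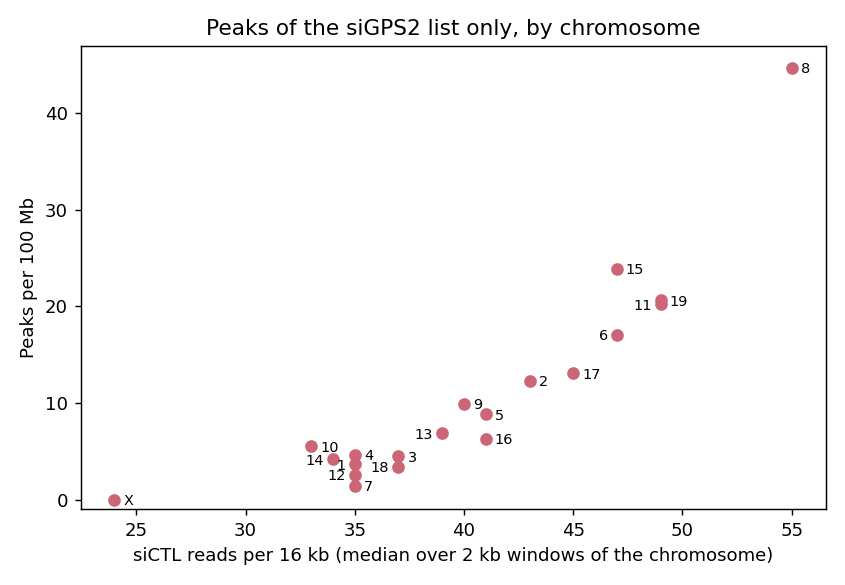
Regions of the siGPS2 list only per 100 Mb (vertical) against the siCTL read density of the chromosome, the median number of distinct reads per 16 kb (horizontal), with 1 point per chromosome. Chromosome 8 has the highest values on both axes (55 reads and 44.7 regions per 100 Mb) and chromosome X the lowest (24 reads and none).

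Within their chromosomes too, the regions lay in denser surroundings. The flanks held a median of 55 siCTL reads (23 to 227) and 44 siGPS2 reads (16 to 138), against medians of 39 and 29 around the tiled windows. Set against the median of their own chromosome, the siCTL flanks were above it in 195 of the 255 regions (76.5%) and the siGPS2 flanks in 198 (77.6%), against 48.3% and 47.2% of the windows. The median flank was 1.15 times that of the chromosome in siCTL and 1.24 times in siGPS2. The peaks of the siCTL list only gave 1.16 and 1.20 times, and those of both lists 1.18 and 1.20 times, so the uniquely placed classes gave similar values.

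The regions on chromosome 8 had intervals that overlapped those of the other regions in each measure given here. Their siCTL centre enrichment was 2.53 times (2.15 to 2.95) against 2.64 times (2.42 to 2.87) on the other chromosomes, and their shoulder enrichment 1.67 times (1.54 to 1.82) against 1.58 times (1.51 to 1.66). In siGPS2 the centre value was 4.42 times (3.85 to 5.04) on chromosome 8 and 5.31 times (4.95 to 5.69) on the others. The centre ratios of the libraries were 1.88 (1.54 to 2.31) and 2.10 (1.88 to 2.34). The overlap was narrow for the siGPS2 centre, from 4.95 to 5.04. Overlap of intervals does not show that the values are equal.

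A small set of 15 regions lay in 100 kb bins with at least 2 times the genome median of reads in both libraries, among them the chromosome 1 region, the chromosome 2 pair and the region called lower. Their ratio at the centre was 1.25 (0.881 to 1.78), against 2.13 (1.93 to 2.36) for the other 240. Their shoulder ratio was 0.750 (0.616 to 0.910), from 294 siCTL and 166 siGPS2 reads, against 1.07 (1.01 to 1.14). The region called lower held 41 of those 294 and 10 of those 166 reads, and it was named for its low whole-peak ratio. The shoulder ratio without it was not computed, so an interval below 1 is not claimed for the other regions of this set. The whole-peak ratio was above 1 in 5 of the 15, against 177 of the 240. At the centre, 9 of the 15 had the higher scaled density in siGPS2, against 203 of the 240. In these dense surroundings most regions thus had the higher whole-peak density in siCTL, though not at the centre.

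The 108 regions whose reads all had high mapping quality showed the larger difference at the centre, with a ratio of 2.51 (2.15 to 2.93). Their siCTL centres still stood at 2.31 times the flanks (2.03 to 2.62), and their shoulders were alike in the libraries at 1.61 times in siCTL and 1.60 times in siGPS2. In the 57 regions with a share of high mapping quality under 80%, the centre ratio was 1.70 (1.41 to 2.07), below the interval of the 108. The rule used both the mapping quality share and this contrast of the libraries, so the order of the 2.51 and the 1.70 is a description and no test. Their shoulders stood at 1.43 times the flanks in siCTL (1.30 to 1.57), an interval that overlapped that of the 108 (1.505 to 1.72), and at 1.31 times in siGPS2 (1.17 to 1.46), below that of the 108 (1.48 to 1.73).

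Most regions had no other joined peak within 100 kb. The spacing of peaks placed at random was not computed, so the distances are compared between classes of peaks only. The nearest other joined peak was a median of 233 kb from centre to centre, and 13 of the 255 (5.10%) had one within 10 kb, against 23.7% of all joined peaks, 5.78% of the uniquely placed peaks of the siCTL list only and 11.8% of those of both lists. Within 100 kb there was another joined peak for 78 regions (30.6%), against 49.7% of all joined peaks. The share was 28.4% for the uniquely placed peaks of the siCTL list only and 40.3% for those of both lists. Of the 255, 8 had a peak of the siCTL list only within 10 kb (3.14%) and 48 within 100 kb (18.8%). These shares were 10.2% and 36.7% over all joined peaks, and 2.89% and 18.6% among the 415 uniquely placed peaks of the siCTL list only. The 177 regions with no other joined peak within 100 kb had a similar profile, with centres at 2.80 times the flanks in siCTL (2.55 to 3.07) and 5.48 times in siGPS2 (5.08 to 5.91).

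Both libraries came from the same lane, per the read names. Over the 14 flow-cell tiles with over 100000 reads of both, the share of reads in the regions ran from 0.0547 to 0.0670% in siGPS2 and from 0.0425 to 0.0566% in siCTL, with a ratio of 1.11 to 1.42 and a centre ratio of 1.43 to 2.67. These are parts of the reads that chose the regions, so a ratio above 1 in every tile follows from that choice, and the values only describe the spread along the lane.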

How the data were processed

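KDM4A ChIP-seq was measured in 1 siCTL and 1 siGPS2 library. The submitters' processing notes name Bowtie, HOMER and the build mm8 but give no role for them. Versions and read filters are not given in the sources used here. The authors deposited aligned reads whose mapping quality score (0 to 42) is not normalized, and peak lists that hold other values than signal, only coordinates. In siCTL 3 and in siGPS2 6 incomplete lines were left out.

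With Python 3.11.15, numpy 2.4.6, pandas 2.3.3 and scipy 1.17.1, 1 read per chromosome, 5 prime position and strand was kept per library, and 5 prime ends were counted in joined peaks. Peak starts were taken to count from 0, and positions are printed counting from 1. Ratios scale to the distinct reads of each library and carry exact conditional (Clopper-Pearson) 95% intervals. Centres are those of the siGPS2 peak placed first in its list, or of the siCTL peak where there is no siGPS2 peak. The calls were checked on simulated data. Depth, a median of 12 reads per region and library, limits what single regions can show.

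The regions, lists and criteria were chosen with earlier results of these data known. Regions were named by rule: the 10 with most siGPS2 and the 5 with most siCTL centre reads, all called ones, and 3 on either side of the 50% share. The shoulder, the inward share, the tiles, and the division by chromosome 8, mapping quality and neighbours were added after values were seen. Alternatives changed the mapping quality, share, overlap, read minimum, scaling, and the centre and flank widths.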

Additional observations from a re-analysis of the deposited data

How the results depend on the processing

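No paired analysis was possible because each group had 1 library. Of the 55 alternative values, 49 kept their direction and their side of the threshold or, for counts, stayed within 1.5 times. The other 6 were counts that moved further, and no ratio, enrichment or shift reversed. A count has no direction to reverse. The direction of the summed ratios and siGPS2 enrichments followed from the choice of the regions on siGPS2 reads. The number of regions ran from 198 with a share of at least 80% to 270 with a mapping quality of at least 20. The summed ratio was 1.20 (1.14 to 1.26) scaled to the flanks and 2.05 at the centre. The regions called higher, 7 in the main analysis, were 14 with at least 20 reads, 1 with at least 50 reads, 4 scaled to the flanks and 4 among those with all reads of high mapping quality. The region called lower was lost (0) outside dense bins and among regions with all reads of high mapping quality, since both leave it out. Calls within 150 bp of the centre could not be made, because no region reached 30 reads there. The siCTL centre enrichment ran from 2.30 within 250 bp to 2.88 within 100 bp, and the siGPS2 one from 3.90 to 6.36. Leaving out chromosome 8, neighbours within 12 kb or positions of both libraries was chosen after seeing the data.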
